A study of Mus musculus with 2 samples.

Results

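The 9 genes described here mark the capillary endothelium of the mouse lung. Car4, Ednrb, Apln and Tbx2 mark aerocytes, and Gpihbp1, Aplnr, Plvap, Cd93 and Kit mark general capillary cells. They were found by symbol, through the RefSeq accession of each probe, and all 9 were among the 15495 genes measured on both arrays of the series. The 9 genes had 12 probes, each printed in 1 spot, and Car4, Ednrb and Plvap had 2 probes each.

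The series holds 2 one-colour arrays of whole lung, a tissue in which all cell types are mixed. The first is of C57BL6/N lung with a transgene for overexpression of HSP27, the small heat shock protein that Hspb1 encodes, and the second of C57BL6/N lung without it. Both had received bleomycin, which damages alveolar cells and causes fibrosis, by injection into the trachea at 1.25 mg/kg, both were sampled at day 14, and both are labelled male and 6 weeks old. The promoter and species of the transgene, and whether a sample is 1 animal or a pool, are not given in the sources used here. There was no array of lung without bleomycin and only 1 array per group, so no difference below could be tested or set against the spread between animals.

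Alveolar capillaries are made of a pair of interwoven endothelial cell types. Aerocytes are large, thin cells that lie against alveolar type 1 cells and specialise in gas exchange, and they depend on VEGF-A from that epithelium. General capillary cells regulate vessel tone and act as stem cells that renew both types after injury. The types also signal to each other, since aerocytes make the peptide apelin and general capillary cells carry its receptor.

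Several other transcripts differed between the same 2 arrays, and they stand beside every result below. Of 13 cardiac muscle markers, the 9 with a value on each array were all at least 1.5-fold higher on the transgenic one, and the other 4 exceeded background on that array only, with signals that summed over the list to 28.1 times the array's 75th percentile on the transgenic array and 4.93 times on the C57BL6/N array. All 5 measured adipose markers were higher too (summed level 23.1 on the transgenic array and 0.722 on the C57BL6/N array), as were all 5 measured basal airway cell markers (2.75 and 0.486). Xist, the RNA of the inactive X chromosome, exceeded background on the C57BL6/N array only (at least 36.8-fold lower on the transgenic array), although both samples are labelled male. The Y-linked Ddx3y read 2437 on the transgenic array and 508 on the C57BL6/N array, and Eif2s3y read 3338 on the transgenic array and 800 on the C57BL6/N array, differences of 2.11 and 1.91. The C57BL6/N array thus held Xist beside Y-linked signal, against its label, and whether that sample holds RNA of female mice was not tested. Every difference below is between these samples as labelled. Hspb1 itself was at 0.24 (1.18-fold higher on the transgenic array), read by a mouse probe that may not report the transgene. The part of carried-over tissue and of sex in the capillary results was not tested.

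All 9 capillary genes had a lower scaled signal in the transgenic lung, by between 0.06 and 1.61 on the log2 scale. Of all 15495 genes, 54.0% had a lower signal there. Apln, the apelin gene of aerocytes, had the lowest value relative to C57BL6/N (3.06-fold lower), followed by the general capillary receptor Cd93 (2.21-fold lower). Aplnr, Ednrb and Kit were each between 1.65-fold and 1.90-fold lower, while Car4, Plvap, Gpihbp1 and Tbx2 differed by less than 1.5-fold. Values are log2 processed signals after each array's 75th percentile was subtracted, and differences are transgenic minus C57BL6/N. Thus 5 of 9 genes were at least 1.5-fold lower, where 8.31% of all 15495 genes were, and 0 of 9 were at least 1.5-fold higher, where 10.2% of all genes were. At 2-fold, 2 of 9 were lower, against 1.87% of all genes, and 0 of 9 higher, against 3.81%. When all genes were split by mean signal into 3 equal groups of 5165, Ednrb and Aplnr were in the middle group, where 7.28% were at least 1.5-fold lower, and the other 7 in the brightest group, where 5.25% were. The median over the 9 genes was -0.73, and over all genes -0.04. The genes were proposed with these results known, so the counts describe them and are no independent support. In whole lung, fewer capillary cells, less RNA per cell and a larger share of RNA from other cells or tissues cannot be told apart.

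**Figure D1:**
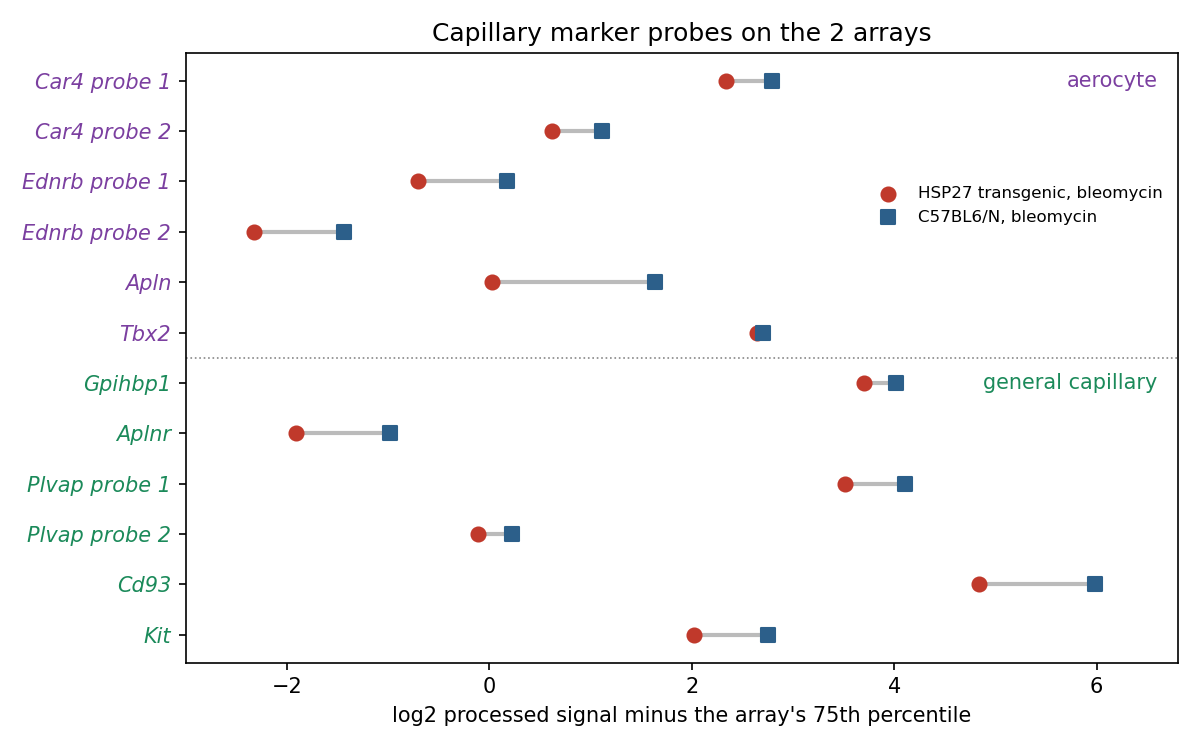
Scaled signal of each of the 12 probes on the transgenic array (red circles) and the C57BL6/N array (blue squares), on a log2 axis where 0 is the array's 75th percentile. Every circle lies left of its square, with the widest gap for Apln (-1.61) and almost none for Tbx2 (-0.06), and positions of different probes cannot be compared as levels of their genes.

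Among the aerocyte genes, Apln stood apart. Its probe read 1450 on the transgenic array and 4004 on the C57BL6/N array, so that the scaled transgenic signal was 32.7% of the other. Only 39 of 15495 genes (0.252%) had a difference as low or lower. The technical SD of a log2 difference at that brightness, from probes printed in 10 spots, was 0.06, and it holds no variation between animals. Apln lies on the X chromosome, where 536 measured genes had a median of -0.09, 17 of them (3.17%) were at least 2-fold lower, and 3, Apln included, were at or below its value.

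Ednrb encodes the endothelin receptor type B, which clears endothelin from the lung circulation and drives nitric oxide release. Its brighter probe read 873 on the transgenic array and 1450 on the C57BL6/N array, a difference of -0.88. Its dimmer probe read 284 on the transgenic array and 475 on the C57BL6/N array, a difference of -0.89. The probes therefore differed from each other by less than the technical SD at either brightness (0.06 and 0.14), and 448 genes (2.89%) lay at or below the mean of -0.88.

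Car4 encodes carbonic anhydrase 4, which sits on the capillary surface and speeds the release of carbon dioxide. Its probes read 7228 and 2188 on the transgenic array, against 8893 and 2791 on the C57BL6/N array. The differences of -0.45 and -0.50 were alike, well beyond the technical SD of 0.05 and 0.06, and short of 1.5-fold. With 13.0% of all genes at or below its mean of -0.47, Car4 was low without being among the extremes.

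Tbx2, a T-box transcription factor, showed almost no difference. Its probe read 8915 on the transgenic array and 8370 on the C57BL6/N array, and scaling turned this small excess into -0.06, about the technical SD of 0.05. Tbx2 is also made by lung mesenchyme, and of 10 fibroblast and myofibroblast markers 6 were at least 1.5-fold higher on the transgenic array (median 0.84, summed level 257 on the transgenic array and 157 on the C57BL6/N array). Their part in the Tbx2 signal was not tested.

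Of the general capillary genes, Cd93 was the lowest. It encodes a C-type lectin-like receptor of endothelial cells that takes part in adhesion and vessel growth, and some myeloid cells carry it as well. Its probe read 40784 on the transgenic array and 81273 on the C57BL6/N array, a difference of -1.14, with 177 genes (1.14%) as low or lower.

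Aplnr, the apelin receptor, read 380 on the transgenic array and 653 on the C57BL6/N array, a difference of -0.93 with 2.42% of genes as low or lower. Kit, the receptor tyrosine kinase for stem cell factor, read 5810 on the transgenic array and 8674 on the C57BL6/N array, a difference of -0.73 with 5.02% of genes as low or lower. The transcripts of apelin and of its receptor were thus both at least 1.5-fold lower, although the genes belong to different capillary cells.

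Plvap encodes the protein that forms the diaphragms of endothelial fenestrae and caveolae. Its brighter probe read 16259 on the transgenic array and 22190 on the C57BL6/N array (-0.60), and its dimmer probe read 1318 on the transgenic array and 1506 on the C57BL6/N array (-0.34). These probes differed by more than the technical SD (0.05 and 0.06), and the brighter one alone passes 1.5-fold. The gene's mean was -0.47.

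Gpihbp1, which anchors lipoprotein lipase on the capillary wall, was the general capillary gene with the smallest difference. Its probe read 18583 on the transgenic array and 20904 on the C57BL6/N array, a difference of -0.32 with 22.9% of genes as low or lower. Capillaries of heart and fat also make Gpihbp1, and the markers of both tissues were higher on the transgenic array. Their part in its signal was not tested.

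Promoter sequences were available for 4 of the 9 genes, and they are shown because Apln, Ednrb and Kit were lower together while Car4 was less so. They run from 250 bases before to 50 after the gene start, from RefSeq on build GRCm38.p6, and the first entry is shown for Kit, which has 2. Capitals mark CGGAA, a form of the site bound by ETS factors such as the endothelial Erg and Fli1. They also mark ACGTG or GCGTG, the core bound by hypoxia-inducible factors. Each was searched on both strands, and overlapping matches run together.
Apln, chrX:48034804-48035103, minus strand: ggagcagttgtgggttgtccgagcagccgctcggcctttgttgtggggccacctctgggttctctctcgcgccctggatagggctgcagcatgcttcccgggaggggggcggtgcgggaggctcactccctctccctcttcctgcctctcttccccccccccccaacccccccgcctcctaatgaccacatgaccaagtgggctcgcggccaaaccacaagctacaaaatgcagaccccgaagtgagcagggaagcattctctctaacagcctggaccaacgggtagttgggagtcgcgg
Ednrb, chr14:103843652-103843951, minus strand: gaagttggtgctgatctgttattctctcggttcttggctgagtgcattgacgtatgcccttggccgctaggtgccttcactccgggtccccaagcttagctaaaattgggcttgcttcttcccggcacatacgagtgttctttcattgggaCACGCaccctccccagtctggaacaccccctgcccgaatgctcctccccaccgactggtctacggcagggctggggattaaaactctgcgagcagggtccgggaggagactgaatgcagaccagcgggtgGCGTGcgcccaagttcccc
Kit, chr5:75574737-75575036, plus strand: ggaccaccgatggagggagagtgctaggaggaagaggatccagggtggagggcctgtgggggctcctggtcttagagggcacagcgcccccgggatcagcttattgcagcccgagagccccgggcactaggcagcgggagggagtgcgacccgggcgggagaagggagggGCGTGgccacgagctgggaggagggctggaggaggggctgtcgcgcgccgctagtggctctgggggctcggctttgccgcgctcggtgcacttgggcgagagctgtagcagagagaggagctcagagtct
Car4, chr11:84957504-84957803, plus strand: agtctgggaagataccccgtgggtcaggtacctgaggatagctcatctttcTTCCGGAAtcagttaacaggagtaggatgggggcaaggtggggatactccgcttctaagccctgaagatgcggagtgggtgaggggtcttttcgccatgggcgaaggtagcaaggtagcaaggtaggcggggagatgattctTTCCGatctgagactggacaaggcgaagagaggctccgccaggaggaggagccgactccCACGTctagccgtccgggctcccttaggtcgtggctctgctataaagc

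The Car4 window held 3 matches to CGGAA, and the Apln, Ednrb and Kit windows held 0. Of 32851 promoter entries in the table, 29.9% hold at least 1. Other forms of the ETS site were not searched, so a window with 0 matches may still hold such a site. GCGTG had 2 matches in Ednrb and 1 in Kit (32.4% of promoters), ACGTG had 1 in Car4 (19.6%), and Apln, known to be induced by hypoxia, held 0 of either in this window. The windows of the genes that were lower together had no motif of these 3 in common. Tbx2, Gpihbp1, Aplnr, Plvap and Cd93 had no entry.

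The medians of the capillary types were close to each other. The aerocyte genes had a median difference of -0.68, with 2 of 4 at least 1.5-fold lower, and the general capillary genes a median of -0.73, with 3 of 5. Over all 15495 genes, 8.31% were at least 1.5-fold lower and 10.2% higher, and these shares stand beside every list below. The aerocyte median was higher than the general capillary one by 0.05, while with means in place of medians the difference had the opposite sign (-0.04). Within each type the genes were far apart, over 1.56 for aerocytes (Apln to Tbx2) and 0.82 for general capillary cells (Cd93 to Gpihbp1). In order from the lowest, the differences ran Apln, Cd93, Aplnr, Ednrb, Kit, Car4, Plvap, Gpihbp1 and Tbx2. The neighbours Aplnr and Ednrb (-0.93 and -0.88) and Car4 and Plvap (both -0.47) were within the technical SD of each other.

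Further markers of each type, outside the 9 genes, had similar values. These lists were also chosen with earlier results of these data known, so they are no independent support. Of 10 further aerocyte markers, the transgenic lung had 6 lower and 0 higher by at least 1.5-fold, and their median was -0.71. Rprml was at -1.09 with dim signals (31.9 on the transgenic array and 61.4 on the C57BL6/N array), Fibin at -0.91, and Tbx3, a T-box factor related to Tbx2, at -0.85. Kdr, the main VEGF-A receptor, was at -0.75, and Prx and Nckap5 were both at -0.71. The other 4 were Emp2 (-0.56), Chst1 (-0.55), Cyp4b1 (-0.52) and Sirpa (0.04), a receptor that macrophages also carry.

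Of 9 further general capillary markers, 6 were lower and 1 was higher by at least 1.5-fold, and the median was -0.63. Adgrl3 was at -1.03, Sema3c at -1.02, the GLP-1 receptor gene Glp1r at -0.97, the endothelial phosphatase Ptprb at -0.83, Bmp6 at -0.63 and Cadm1 at -0.59. Tek, the angiopoietin receptor, was at -0.54 and Clec1a at -0.47. Cxcl12, a chemokine that fibroblasts also make, was the exception at 1.21, and its 2 probes disagreed in size (0.36 and 2.06). Markers of both types were thus mostly lower, on the array where markers of heart, fat and airway basal cells were higher.

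The capillary medians lay close to that of a pan-endothelial list. Of its 24 markers, all were below 0, where 54.0% of all genes were. At least 1.5-fold lower were 15 of them, and the median was -0.68. The aerocyte median differed from it by 0.00 and the general capillary median by -0.05. Of the 9 capillary genes, 5 lay below the pan-endothelial median and 4 above it. Relative to that median, Apln was at -0.94 and Cd93 at -0.46, while Tbx2 was at 0.62 and Gpihbp1 at 0.36. The lowest pan-endothelial genes were Tie1 and Calcrl, both at -1.10, so that Apln and Cd93 lay below all 24.

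Arterial, venous and lymphatic markers were compared next. Of 10 arterial markers, 6 were lower and 1 was higher by at least 1.5-fold (median -0.71), with the Notch ligand Dll4 at -1.54, Efnb2 at -0.95 and Dkk2 at 1.85. Of 8 venous markers, 5 were below 0, 0 were lower and 2 were higher by at least 1.5-fold (median -0.31). The lowest were Slc6a2 at -0.58, just short of 1.5-fold, and Ephb4 at -0.56. The 2 higher ones were Ackr1, the chemokine scavenger of venules, at 2.54 and Selp, the P-selectin of activated venous endothelium, at 0.98. Of 7 lymphatic markers, 4 were measured, with Lyve1 at -0.66, a median of -0.09, and Prox1 not well above background on either array. Venous and lymphatic medians were nearer to that of all genes than the capillary medians were.

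**Figure D2:**
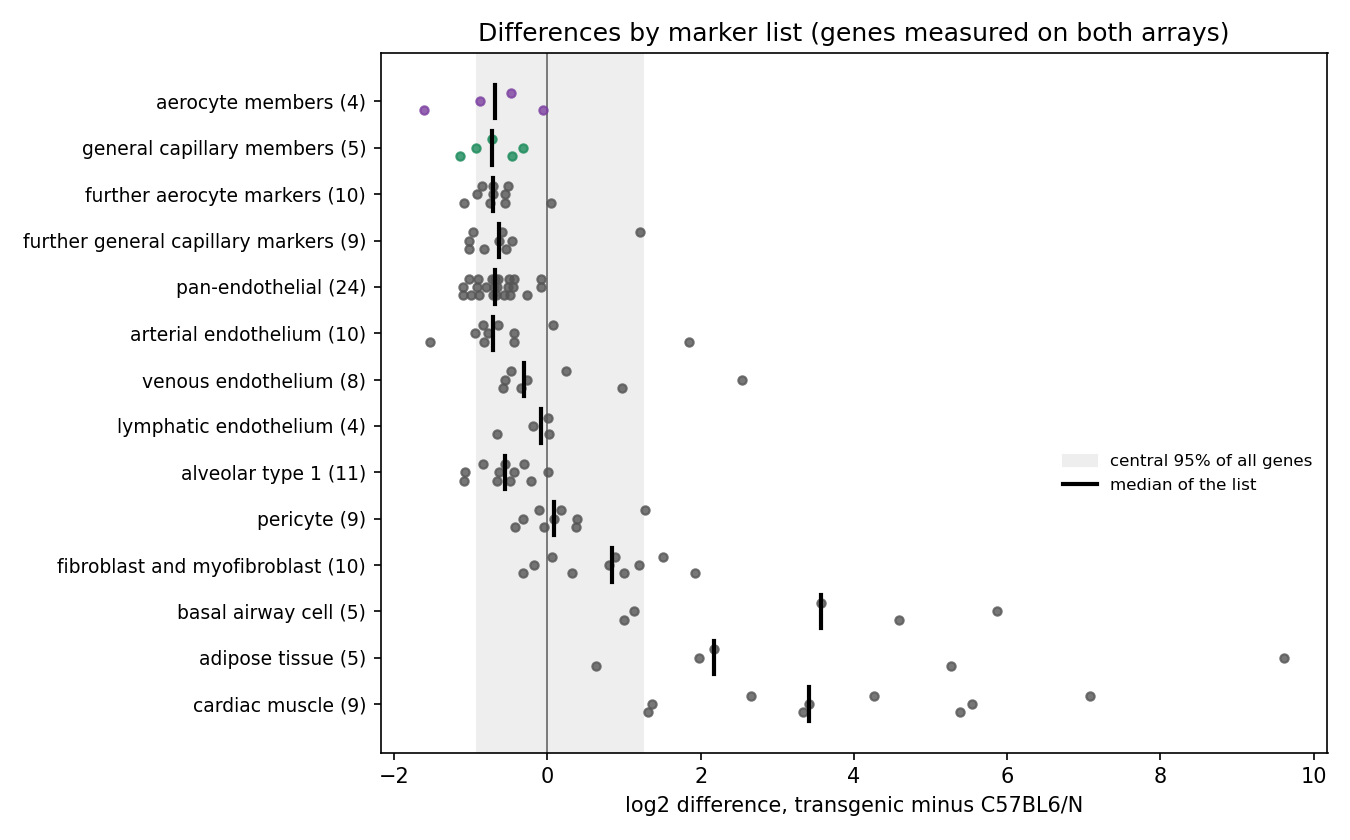
Log2 difference, transgenic minus C57BL6/N, of each gene measured on both arrays (points) by marker list, with the number of genes in brackets, black bars at list medians and grey shading over the central 95% of all genes (-0.92 to 1.24). The capillary, pan-endothelial and arterial medians lie between -0.73 and -0.63, the venous and lymphatic ones at -0.31 and -0.09, and the basal cell, adipose and cardiac ones between 2.17 and 3.57.

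The ligands and partners of the capillary genes did not all follow them. In the apelin system, the proteases Ace and Furin were at 0.21 and 0.02, and 0 of these 2 genes passed 1.5-fold in either direction, beside -1.61 for Apln and -0.93 for Aplnr. Apela, the other ligand of the receptor, was not measured here. In the endothelin system, the ligand Edn1 was at -0.28, the contractile receptor Ednra at 0.30 and the converting enzyme Ece1 at -0.62, so that 1 of 3 measured genes was lower and 0 higher by at least 1.5-fold. Edn2 exceeded background only on the transgenic array (at least 1.67-fold higher, with signals of 22.1 on the transgenic and 5.24 on the C57BL6/N array). Edn3 did so only on the C57BL6/N array (at least 2.25-fold lower in the transgenic lung, with signals of 9.96 on the transgenic and 25.3 on the C57BL6/N array). Only Ednrb of the receptor pair was lower.

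Kitl, which encodes stem cell factor, the ligand of Kit, was at -1.10, with signals of 1494 on the transgenic array and 2882 on the C57BL6/N array. Of 6 genes of that system other than Kit, 4 were below 0, and 1 was lower and 0 higher by at least 1.5-fold. The transcripts of ligand and receptor were thus both lower, unlike those of the lipoprotein lipase pair. Lpl, the enzyme that Gpihbp1 carries to the vessel lumen, was at 0.74, Angptl4, its inhibitor, at 0.42, the fatty acid carrier Cd36 at 0.44 and the maturation factor Lmf1 at 0.12. Of 7 measured genes in that list 1 was higher and 0 lower by at least 1.5-fold, and Apoc3 exceeded background only on the transgenic array (at least 3.27-fold higher). Fat and heart muscle, whose markers were higher on the same array, make much Lpl. Their part in the Lpl signal was not tested.

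The binding partners of the CD93 receptor went both ways. Mmrn2, an endothelial matrix protein that binds CD93, was at -0.48, and Igfbp7, another ligand, at 0.63. Of 5 genes in this list 4 were below 0, and 2 were at least 1.5-fold lower, Thbd (-0.79) and Clec14a (-0.72), relatives of CD93 in the same lectin-like family. Igfbp7 was the 1 that was higher by as much. Among 7 genes of caveolae, where Plvap forms diaphragms, 6 were below 0, and 3 were lower and 0 higher by at least 1.5-fold. The 3 were Cav1 (-1.08), Cavin1 (-0.92) and Cavin2 (-0.89), whereas Cav2 was at -0.36 and Cavin3 at 0.29.

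VEGF signals were split by ligand. Vegfa, on which aerocytes depend, was at -1.08 over probes from -1.42 to -0.75, and its receptors Kdr and Flt1 were at -0.75 and -0.68. Pgf, a ligand of Flt1, was at 1.09, with signals of 267 on the transgenic array and 113 on the C57BL6/N array. Vegfb, Vegfc and Vegfd were between -0.10 and 0.06. Of the 9 genes, 3 were lower and 1 higher by at least 1.5-fold, with a median of 0.06.

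**Figure D3:**
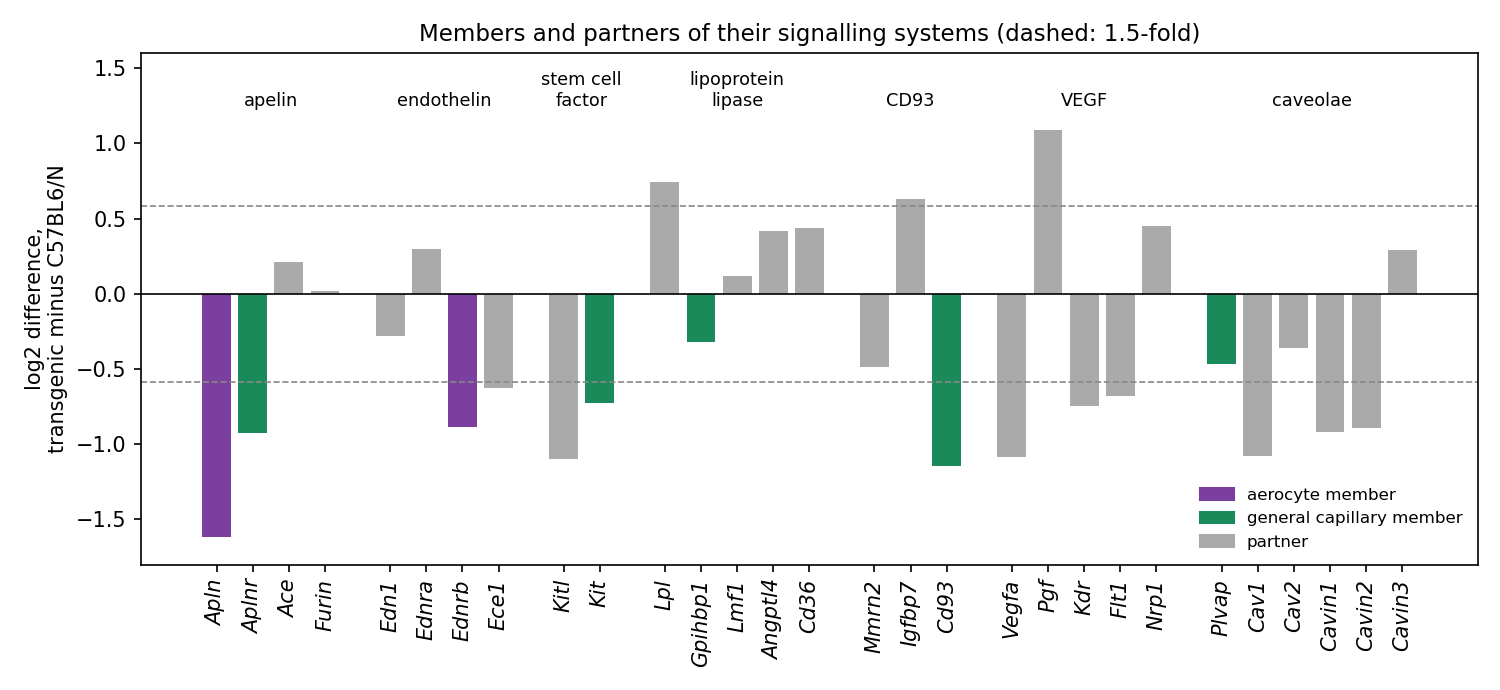
Log2 difference, transgenic minus C57BL6/N, of the aerocyte genes Apln and Ednrb (purple), the general capillary genes Aplnr, Kit, Gpihbp1, Cd93 and Plvap (green) and named partners of their systems (grey), with dashed lines at 1.5-fold. Apln with Aplnr and Kitl with Kit lie below 0 together, while Lpl (0.74) stands above 0 beside Gpihbp1 (-0.32).

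Neighbouring cells of the alveolar wall were compared as background for the capillary genes. Alveolar type 1 cells, which share a basement membrane with aerocytes, had 5 of 11 measured markers lower and 0 higher by at least 1.5-fold (median -0.56). Emp2, Cav1, Vegfa and a lymphatic marker stand in this list as well as in lists above. Pericyte markers, of the cells that wrap capillaries, had a median of 0.09, with Rgs5 at 1.27 as the 1 of 9 that was higher, and 0 lower, by at least 1.5-fold. Pericyte markers thus lay on both sides of 0, from -0.42 to 1.27.

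Kit is also carried by mast cells and by some innate lymphoid cells. Of 9 mast cell and basophil markers 5 were measured, with Gata2 (-0.86) and Tpsb2 (-0.61) at least 1.5-fold lower, 0 higher by as much, and Fcer1a, Ms4a2 and Mcpt8 not well above background on either array. The mast cell protease genes Cpa3 and Mcpt4 were above 0, at 0.35 and 0.32, and Hdc, which encodes histidine decarboxylase and is named because its signal was seen to lead the list, was at -0.40. The list's summed level was 5.77 on the transgenic array and 8.34 on the C57BL6/N array, nearly all of it from Hdc (signals of 5761 on the transgenic array and 6865 on the C57BL6/N array) and Gata2 (2271 and 3714), a factor that endothelial cells also make. Of 7 type 2 innate lymphoid markers 5 were measured, with Gata3 (-1.32) and Areg (-0.67) at least 1.5-fold lower and 0 higher by as much. The 5 measured genes lay on both sides of 0, from -1.32 to 0.32, with 3 below 0 and a median of -0.50. The summed level of this list was 2.58 on the transgenic array and 3.91 on the C57BL6/N array. The part of these cells in the Kit signal was not tested.

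The 9 genes kept their direction under 9 processing alternatives. These leave out a background correction that could not be fitted properly to the transgenic array and gave Ednrb and Aplnr the opposite sign (0.32 and 0.68). Several of the 9 could hardly alter a direction. Dropping or tightening the filter on dim probes returned the main value of every gene. Keeping outlier spots and using the deposited table gave nearly the same values. The brightest probe could change only Car4, Ednrb and Plvap. Apln lay between -1.61 and -1.49, Cd93 between -1.14 and -1.09 and Tbx2 between -0.10 and -0.00.

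**Figure D4:**
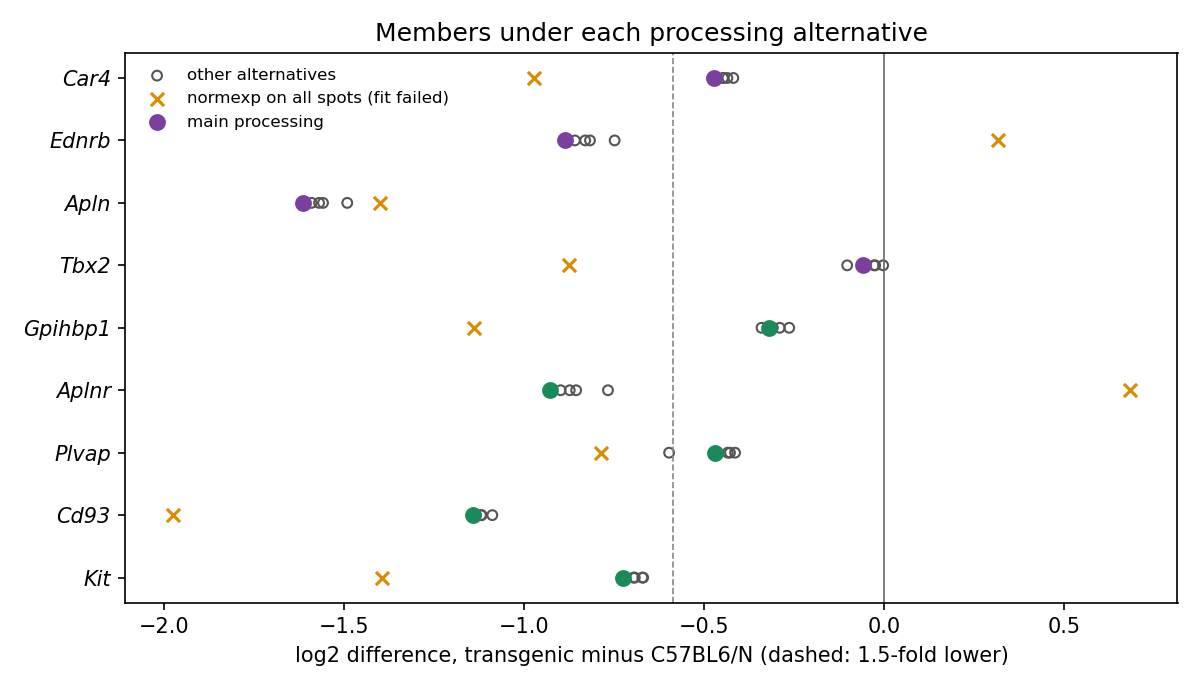
Log2 difference, transgenic minus C57BL6/N, of each gene in the main processing (filled circles), under 9 alternatives (open circles) and with the planned normexp, which could not be fitted properly to the transgenic array (crosses), with a dashed line at 1.5-fold lower. All circles lie below 0, those of Aplnr between -0.93 and -0.77, and the crosses of Ednrb (0.32) and Aplnr (0.68) lie above 0.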

How the data were processed

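Per the file headers, the authors' deposited array files hold an intensity for every spot, made by Agilent Feature Extraction 11.5.1.1, which subtracts background and corrects spatial and multiplicative trends array by array, plus flags (0 or 1) for saturation, outliers and signal well above background. The series-wide deposited table is an intensity on a linear scale, and for 39020 transgenic and 39022 C57BL6/N probes with 1 spot it equalled the processed signal within 0.1%. Both arrays came from the same slide and scan. Per the labels, whole-lung RNA was labelled with Cy3.

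Control and outlier spots were left out, spots of a probe averaged on the log2 scale, and each array's 75th percentile over 39429 probes (1426 transgenic, 1287 C57BL6/N) subtracted. Probes well above background in at least 50% of their spots on both arrays were used (26387), and a gene's value was the mean of its probes. For a gene above background on 1 array alone, a bound is given against the higher of the other array's lowest signal above background and the probe's own. No spot was saturated. Symbols came from RefSeq accessions on GRCm38.p6, while the array headers name mm9, and 27508 probes matched. The technical SD is that of spot-by-spot differences of probes printed in 10 spots, in 3 groups by brightness.

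The members and all gene lists were chosen with earlier results of these data known. Most names in the text follow a rule: all 9 genes, all further capillary markers, direct partners and partners past 1.5-fold, and up to 2 highest and 2 lowest of other lists. Some genes outside this rule are named as well, such as Cav2, Cavin3, Cd36, Foxm1, Top2a and Tbx4. A list member is not reported here. With 1 array per group no test was made. The scaling and the mean per gene were tested on simulated probe values holding known differences, and the other steps were not. Python 3.11.15, numpy 2.4.6, pandas 2.3.3, matplotlib 3.10.9, R 4.3.3 and limma 3.58.1 were used.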

Additional observations from a re-analysis of the deposited data

How the results depend on the processing

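The number of arrays and their signal over background limit these results, since 1 array per group gives no spread between animals. Normexp was planned on mean signals, and the files hold medians. With all spots it could not be fitted properly, since 6 spots of the transgenic array were no brighter than their local background (which reached 217431, against a median of 33.5), and the median of all genes was then 0.60. There Ednrb was at 0.32 and Aplnr at 0.68, and 8 members passed 1.5-fold, 7 lower and 1, Aplnr, higher. Of all genes, 18.9% were then at least 1.5-fold lower, and 7791 of 15495 higher. The medians were -0.97 over all members, -0.92 over aerocyte and -1.14 over general capillary genes, 0.22 apart. Without the 7 such spots of either array, an alternative chosen after seeing the data, these medians were -0.67, -0.61 and -0.67. Scaling by the array median gave -0.67, -0.62 and -0.67, and cyclic loess gave -0.63 for aerocyte genes. With means the aerocyte value was -0.76 and the types differed by -0.040, against 0.05 with medians. Scaling by the array median moves every gene by the same amount, and a mean over the aerocyte genes takes in the full value of Apln (-1.61). The cause of the other shifts was not tested. At 2-fold, 2 members were lower (1.87% of all genes) in place of 5 at 1.5-fold (8.31%). With the brightest probe 6 were at least 1.5-fold lower (8.58% of all genes), Plvap being added. Genes at least 1.5-fold lower were 1287 of 15495 (8.31%), against 2080 of 20878 (9.96%) without a filter on dim probes. They were 682 of 15494 (4.4%) with the added normexp and 2927 of 15495 (18.9%) with normexp on all spots. Those higher were 1582, against 2526, 980 and 7791 in the same order. Higher genes made up more of the calls after cyclic loess (1931 higher, 971 lower). No paired analysis was possible because each group holds 1 array.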

Other observations

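Gene families of 2 aerocyte markers held larger differences than the markers themselves. Of 11 other carbonic anhydrases, the transgenic lung had 5 higher and 2 lower by at least 1.5-fold. Their median was 0.35, whereas Car4 was at -0.47. Car3, abundant in muscle and fat, was at 7.65, with signals of 5631 on the transgenic array and 25.3 on the C57BL6/N array, and Car13, Car11, Car9 and Car5b were at 1.23, 0.75, 0.69 and 0.64. Car1, a red cell enzyme, was at -0.75 and Car14 at -0.65. Of the T-box factors other than Tbx2, Tbx3 was at -0.85 and Tbx5, a factor of lung mesenchyme and heart, at 0.59, while Tbx4, of lung mesenchyme, was at -0.05. Tbx20 and Tbx18 exceeded background only on the transgenic array, and Tbx15 only on the C57BL6/N array. Their signals, in that order, were 6.38, 16.4 and 5.78 on the transgenic array and 2.62, 12.1 and 18.85 on the C57BL6/N array. These signals were dim, and each lower bound on the difference was below 2-fold.

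Genes linked to capillary renewal after injury went both ways. Foxf1, a factor that lung capillary endothelium needs, was at -0.95. Ntrk2, which appears in activated capillary cells of the injured mouse lung, was 2.83-fold higher, with signals of 1280 on the transgenic array and 408 on the C57BL6/N array. The hypoxia target Car9 was at 0.69. Of the proliferation genes, Mki67 was at -0.77, Foxm1 at -0.15 and Top2a at -0.05. Of the 8 genes 2 were higher and 2 lower by at least 1.5-fold, the median was 0.14, and markers of heart, fat and basal cells were higher on the transgenic array.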
